A study of Homo sapiens with 9 samples.

Results

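The mRNAs of 3 poly(A)-binding proteins, PABPC1, PABPC4 and PABPN1, were examined among 35309 identifiers of an eCLIP experiment on MDH2, the mitochondrial malate dehydrogenase of the TCA cycle. They were taken by gene name, with all exon and intron windows listed for them, 2148 of 15767969 windows in the series. eCLIP maps the positions at which a protein was UV cross-linked to RNA. The cells were Huh7, a human hepatoma line, with no further treatment named in the labels. Libraries were made in 3 replicates from an IP with an antibody to MDH2 (MDH2 IP), from the size-matched input (SMI), which is lysate that did not pass through an IP, and from an IP with control IgG (IgG IP). No source used here says that the replicates came from separate cultures, so p-values measure the spread between these libraries. All groups came from UV cross-linked cells, so no group lacks cross-linking.

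Poly(A)-binding proteins coat the poly(A) tails of mRNAs. PABPC1 is the main cytoplasmic form, which bridges the tail to the translation initiation factor eIF4G at the cap, and it represses translation of its own mRNA through an A-rich element of the 5′ UTR. PABPC4 is a second cytoplasmic form with the same domain layout. PABPN1 is the nuclear form, which stimulates poly(A) polymerase and controls tail length. The data concern the mRNAs that encode these proteins, not the proteins.

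Cross-link sites were counted in 50-nt windows with a step of 20 nt along each exon and intron, and sums over windows count a site more than once. A library of MDH2 IP held 5899767 to 9482209 window counts, a library of SMI 8311027 to 9788461 and a library of IgG IP 1631220 to 2942624, so the values from IgG IP are the least precise. PCR ran for 14 cycles for both IPs and for 9 cycles for SMI. All 10 hepatocyte markers examined had at least 10 exon counts in every SMI library, with a summed level between 5177 and 6897 CPM, which are counts scaled to library size. The summed level of 3 fibroblast markers was between 1.32 and 3.56. CPM were normalized by TMM. They are relative to each library and do not measure how much RNA an IP recovered. The comparisons share libraries: MDH2 IP and IgG IP are both set against the same SMI, and their values are given side by side.

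On GRCh38, PABPC1 is on chromosome 8 from 100685816 to 100722809, minus strand. PABPC4 is on chromosome 1 from 39560709 to 39576790, minus strand, and PABPN1 on chromosome 14 from 23321457 to 23326163, plus strand. The files list 15 exons and 14 introns for PABPC1, 12 and 11 for PABPC4, and 5 and 4 for PABPN1. These are merged exons of all transcripts, numbered from the 5′ end, and exon numbers differ from those of a single transcript. Reads could be shared with near-identical copies. The 7 PABPC1, PABPC4 and PABPN1 pseudogenes listed had at most 18 counts in any library, and PABPC3, an intronless copy of PABPC1, had at most 12. PABPN1 overlaps the readthrough gene BCL2L2-PABPN1, which had 1170, 902 and 670 counts in MDH2 IP. Among PABPN1 windows with enough counts to compare, some in exons 3 and 4 and at the start of exon 5 had identical counts under both genes. No window of exon 1 had such a match. PABPC4-AS1, on the opposite strand of PABPC4, had at most 6 counts in any library.

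All 3 mRNAs carried cross-links in every library, and their order depended on the IP. PABPC1 had MDH2 IP counts of 5504, 4830 and 4068, SMI counts of 3286, 4591 and 4391 and IgG IP counts of 939, 686 and 378. After normalization its level was 626 ± 71.8 CPM (SD, n = 3) in MDH2 IP, against 441 ± 49.0 for SMI and 341 ± 81.3 for IgG IP. Each MDH2 IP library was above each SMI and each IgG IP library, while SMI and IgG IP overlapped.

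PABPC4 had MDH2 IP counts of 2047, 1361 and 1631, SMI counts of 1378, 1452 and 1845 and IgG IP counts of 408, 235 and 167. Its level was 219 ± 40.9 CPM (SD, n = 3), 168 ± 17.1 and 136 ± 18.3. The MDH2 IP libraries were again above the others, by little in replicate 2 (189 CPM against 187 in SMI replicate 3). PABPN1 had MDH2 IP counts of 1222, 968 and 850, SMI counts of 566, 607 and 616 and IgG IP counts of 352, 294 and 201. Its level was 131 ± 9.41 CPM (SD, n = 3), 64.7 ± 2.32 and 149 ± 28.2. Here both IPs lay above all SMI libraries and overlapped each other. Per kb of the main transcript, the exon level in SMI was 125 ± 19.8 CPM for PABPC1, 38.7 ± 3.18 for PABPC4 and 35.0 ± 0.852 for PABPN1. The order was the same in each SMI library, although PABPC4 (36.3 to 42.3 CPM per kb) lay just above PABPN1 (34.2 to 35.9). In IgG IP, PABPC1 at 98.7 ± 31.6 CPM per kb and PABPN1 at 80.5 ± 15.4 overlapped, and PABPC4 was lowest, at 33.3 ± 3.59. In MDH2 IP they had 193 ± 27.0, 71.3 ± 5.16 for PABPN1 and 57.5 ± 11.4 for PABPC4, and the last pair overlapped.

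**Figure D1:**
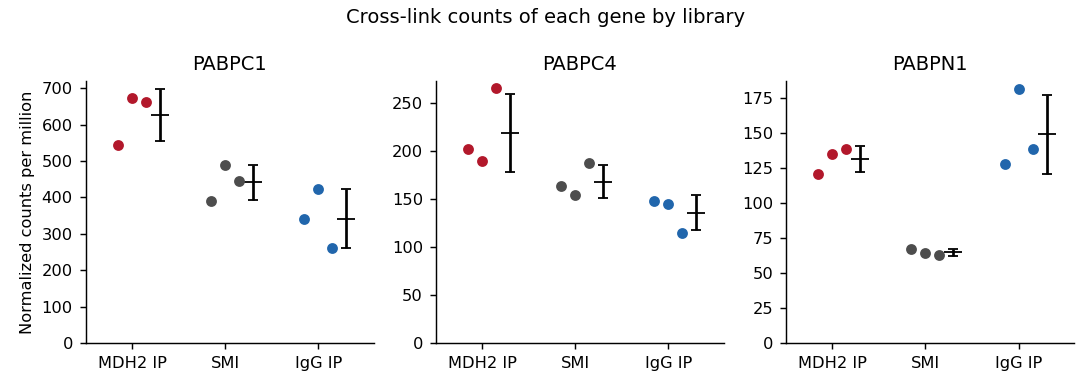
CPM (y axis, linear from 0, different range in each panel) of each gene in the 9 libraries. Points are libraries, and the black mark with bars is the mean ± SD (n = 3). PABPC1 and PABPC4 are highest in MDH2 IP, while for PABPN1 the IgG IP (149 CPM) and MDH2 IP (131 CPM) libraries overlap.

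Summed over the gene, PABPC1 was higher in MDH2 IP than in SMI by a log2 fold change of 0.48 (SE 0.14, edgeR's adjusted p = 0.0268), and higher than in IgG IP by 0.92 (SE 0.20, adjusted p = 0.0185, edgeR). PABPN1 was higher than in SMI by 1.00 (SE 0.12, adjusted p = 0.00096, edgeR), with a difference of -0.13 from IgG IP (SE 0.18, adjusted p = 0.646, edgeR). It was also higher in IgG IP than in SMI, by 1.22 (SE 0.18, adjusted p = 0.000902, edgeR). PABPC4 was higher than in IgG IP by 0.73 (SE 0.18, adjusted p = 0.0299, edgeR). Over SMI its log2 fold change was 0.35 (SE 0.15, adjusted p = 0.107, edgeR), and with the replicate number as a block 0.34, with an adjusted p of 9.7e-05 from edgeR. In IgG IP against SMI, PABPC1 had -0.35 and PABPC4 -0.29 (adjusted p = 0.208 and 0.224, edgeR).

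For comparison, of all genes tested 16.4% were higher and 17.9% lower in MDH2 IP than in SMI, 4.64% higher and 7.77% lower than in IgG IP, and 16.4% higher and 11.4% lower in IgG IP than in SMI. Against SMI, calls of this kind were thus common among all genes. With only exon windows in the fit, the log2 fold change of PABPC1 was 0.27 over SMI (adjusted p = 0.237, edgeR) and 0.41 over IgG IP (adjusted p = 0.428, edgeR), and that of PABPC4 over IgG IP was 0.23 (adjusted p = 0.623, edgeR), so that none of these 3 calls was made in that fit. The PABPC1 call over SMI was also lost when MDH2 IP replicate 2 (0.45) or 3 (0.47) or, of SMI, replicate 1 (0.39) or 3 (0.49) was left out, with log2 fold changes between 0.39 and 0.60 over all such fits. Over IgG IP, that of PABPC1 was lost without MDH2 IP replicate 1 (1.05) or 2 (0.89), and that of PABPC4 without MDH2 IP replicate 1 (0.82) or 3 (0.60) or IgG IP replicate 2 (0.77) or 3 (0.62).

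Ratios of exon counts of 2 members within a library do not depend on the scaling of libraries. The log2 ratio of PABPC1 to PABPN1 was 1.97, 2.20 and 2.10 in MDH2 IP, 2.23, 2.72 and 2.498 in SMI, and 1.16, 1.08 and 0.52 in IgG IP. The 3 groups did not overlap in any of the comparisons (two-sided exact permutation p = 0.1 for each, the smallest that 3 libraries against 3 allow). Between MDH2 IP and SMI the gap was narrow, from 2.20 to 2.23. How often other pairs of genes lack overlap was not counted. The ratio of PABPC4 to PABPN1 was 0.46, 0.25 and 0.70 in MDH2 IP, 0.86, 0.85 and 1.10 in SMI and -0.17, -0.68 and -0.56 in IgG IP, again without overlap (two-sided exact permutation p = 0.1 for each). Both ratios were lower in MDH2 IP than in SMI and lowest in IgG IP. Split by exon, MDH2 IP and SMI did not overlap in the later exons. There the ratio to PABPN1 had means of 1.67 against 2.40 for PABPC1 and 0.33 against 0.87 for PABPC4 (two-sided exact permutation p = 0.1 for each). Only for PABPC1 was the difference confined to later exons, since for PABPC4 it was -0.53 in later and -0.41 in first exons. Over first exons the means were 2.77 and 2.72 for PABPC1 (two-sided exact permutation p = 1.0) and 0.75 and 1.16 for PABPC4 (two-sided exact permutation p = 0.2), with overlap. The ratio of PABPC1 to PABPC4 was 1.514, 1.951 and 1.397 in MDH2 IP, 1.365, 1.868 and 1.395 in SMI, and 1.331, 1.754 and 1.079 in IgG IP. Within each replicate number, a pairing that the labels do not give, MDH2 IP was highest and IgG IP lowest. In replicate 3, MDH2 IP and SMI were nearly equal. Without pairing, the groups overlapped in each comparison, with means of 1.62, 1.54 and 1.39 (two-sided exact permutation p from 0.4 to 0.5). There were 9 such tests over all exons, 9 over first exons and 9 over later exons, and none can pass 0.05.

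The difference of PABPC1 from SMI was largest in the first exon among the 14 exons tested. Exon 1, which holds the 5′ UTR and the start codon, had MDH2 IP counts of 2084, 2053 and 1817, SMI counts of 780, 1142 and 1043 and IgG IP counts of 327, 330 and 159. It was higher in MDH2 IP than in SMI by 1.21 on the log2 scale (SE 0.20, adjusted p = 0.000931, edgeR). The other 13 exons tested lay between -0.30 and 0.63 over SMI, with a median of 0.21, and none was called. Of all exons and introns tested over SMI, 9.2% were higher and 11.9% lower.

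Against IgG IP, the first exon of PABPC1 did not stand apart. All 14 tested exons had a log2 fold change above 0, from 0.63 (exon 5) to 1.94 (exon 14), with a median of 1.08 where the median of all exons and introns was 0.29. That reference includes introns, as does the share of calls that follows. With only exon windows in the fit, the log2 fold change of the gene over IgG IP was 0.41, against 0.92 with all windows. Exons 1, 2, 10, 13 and 14 were called, 5 of 14, and 4.33% of all exons and introns were higher. Exon 1 had 0.96 (SE 0.27, adjusted p = 0.0338, edgeR), a call lost without MDH2 IP replicate 2 (1.05) or 3 (1.09) or IgG IP replicate 1 (0.84) or 3 (0.74). Those of exons 13 and 14 were each lost in 4 of 6 such fits, including all without an MDH2 IP library. Exon 14, all of which is 3′ UTR in the main transcript, had MDH2 IP counts of 172, 187 and 175 and counts of 28, 13 and 0 in IgG IP. With 199, 256 and 308 counts in SMI, exon 14 was lower in IgG IP than in SMI, with a log2 fold change of -2.06 (SE 0.49, adjusted p = 0.00901, edgeR), and exons 9 and 10 were also lower, at -1.21 and -1.15, the latter not without SMI replicate 3 (-1.22) or IgG IP replicate 1 (-1.17) or 2 (-1.03). Of all exons and introns, 5.42% were lower in IgG IP than in SMI and 8.31% higher. Exon 1 was above 0 in this comparison, at 0.41 (SE 0.25, adjusted p = 0.31, edgeR).

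Of the 9 tested introns of PABPC1, intron 14, which is listed downstream of the main transcript's last exon, was lower in MDH2 IP than in SMI, with 66, 27 and 41 counts against 144, 120 and 176 and a log2 fold change of -1.58 (SE 0.29, adjusted p = 0.0019, edgeR). Intron 2 was lower by less, at -0.92 (adjusted p = 0.0457, edgeR), a call lost when any single library was left out. Intron 6 was lower in IgG IP than in SMI, at -1.61 (adjusted p = 0.0261, edgeR), but not without IgG IP replicate 1 (-1.43).

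**Figure D2:**
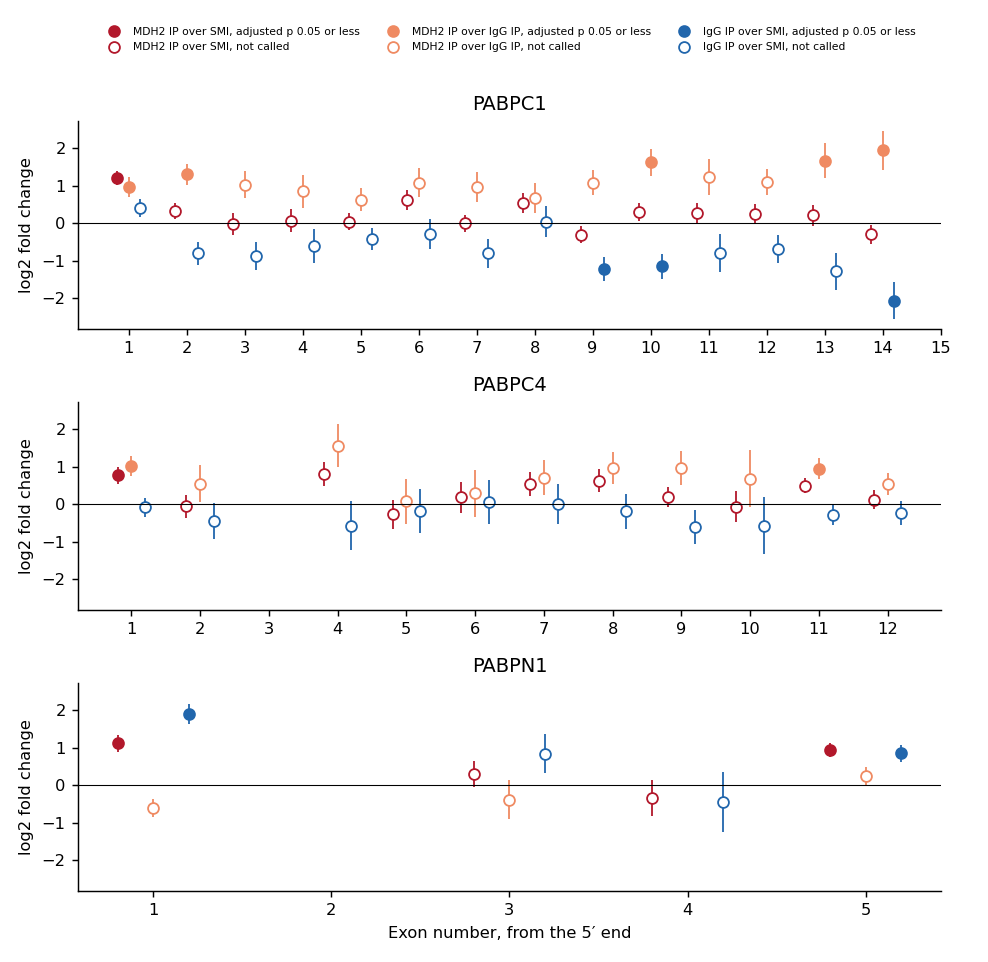
Log2 fold change (y axis) of each tested exon, numbered from the 5′ end (x axis), for MDH2 IP over SMI (red), MDH2 IP over IgG IP (orange) and IgG IP over SMI (blue). Bars are standard errors, and filled points have an adjusted p of 0.05 or less from edgeR. In PABPC1 the red point of exon 1 (1.21) lies above those of the other 13 exons, while the orange points are above 0 in all 14 exons.

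In PABPC4, exon 1 had MDH2 IP counts of 562, 393 and 532, SMI counts of 301, 307 and 386 and IgG IP counts of 106, 61 and 38. It was higher in MDH2 IP than in SMI by 0.78 on the log2 scale (SE 0.22, adjusted p = 0.0219, edgeR) and higher than in IgG IP by 1.02 (SE 0.28, adjusted p = 0.0307, edgeR). Between IgG IP and SMI it had -0.08 (SE 0.26, adjusted p = 0.88, edgeR). Of the other 10 exons tested over SMI none was called, with values from -0.27 to 0.82. All 11 were above 0 over IgG IP, from 0.08 to 1.56, with a median of 0.71 where that of all exons and introns was 0.29. Exon 11 was called beside exon 1, at 0.95 (adjusted p = 0.0412, edgeR). That is 2 of 11, where 4.33% of all exons and introns were higher. With only exon windows in the fit, the log2 fold change of the gene over IgG IP was 0.23. The call of exon 1 over SMI was lost without MDH2 IP replicate 3 (0.55), and also when SMI replicate 1 (0.78) or 2 (0.69) was left out, with values between 0.55 and 0.94 over all such fits. Over IgG IP it was lost without MDH2 IP replicate 3 or IgG IP replicate 2 or 3, and that of exon 11 in 5 of the 6 fits without a library.

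In PABPN1, the listed exon 1 is a merged one that reaches past the first exon of the main transcript. It had MDH2 IP counts of 365, 280 and 242, SMI counts of 136, 194 and 122 and IgG IP counts of 150, 119 and 85. It was higher than in SMI in both IPs, by 1.12 in MDH2 IP (SE 0.23, adjusted p = 0.00401, edgeR) and by 1.90 in IgG IP (SE 0.27, adjusted p = 6.62e-05, edgeR). Against IgG IP, MDH2 IP had -0.60 (SE 0.25, adjusted p = 0.121, edgeR). Exon 5, which holds the 3′ UTR and more counts than any other exon, had MDH2 IP counts of 749, 613 and 563, SMI counts of 357, 349 and 422 and IgG IP counts of 170, 147 and 106. It was higher than in SMI in MDH2 IP by 0.94 (adjusted p = 0.0038, edgeR) and in IgG IP by 0.85 (adjusted p = 0.0193, edgeR; lost without IgG IP replicate 2 at 0.71, or SMI replicate 1, 2 or 3 at 0.74, 0.64 and 0.76), and differed from IgG IP by 0.26 (adjusted p = 0.5, edgeR). Exons 3 and 4 were tested without a call, and the introns had too few counts for a test.

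The share of exon counts in the first exon does not depend on the scaling of libraries either. For PABPC1 it was 44.2%, 46.9% and 50.6% in MDH2 IP, 30.4%, 29.1% and 30.3% in SMI, and 42.5%, 54.4% and 56.6% in IgG IP. Both IPs were above every SMI library (two-sided exact permutation p = 0.1 for each) and overlapped each other (two-sided exact permutation p = 0.5). For PABPC4 it was 34.1%, 34.7% and 39.0% in MDH2 IP, 30.3%, 28.6% and 29.5% in SMI, and 34.6%, 33.9% and 28.6% in IgG IP. MDH2 IP was above every SMI library (two-sided exact permutation p = 0.1), and IgG IP overlapped both. For PABPN1 it was 30.4%, 29.4% and 28.9% in MDH2 IP, 24.8%, 32.5% and 20% in SMI, and 43.6%, 41.3% and 43.4% in IgG IP. Here IgG IP was above all other libraries (two-sided exact permutation p = 0.1 for each), and MDH2 IP overlapped SMI. The share was thus higher than in SMI in IgG IP for PABPC1 and PABPN1 and in MDH2 IP for PABPC1 and PABPC4. Groups did not overlap for 2 of the 3 mRNAs between MDH2 IP and SMI, 1 between MDH2 IP and IgG IP and 2 between IgG IP and SMI. Among all genes with at least 20 exon counts in every library compared, they did not overlap for 28.6%, 16.1% and 23.6%.

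**Figure D3:**
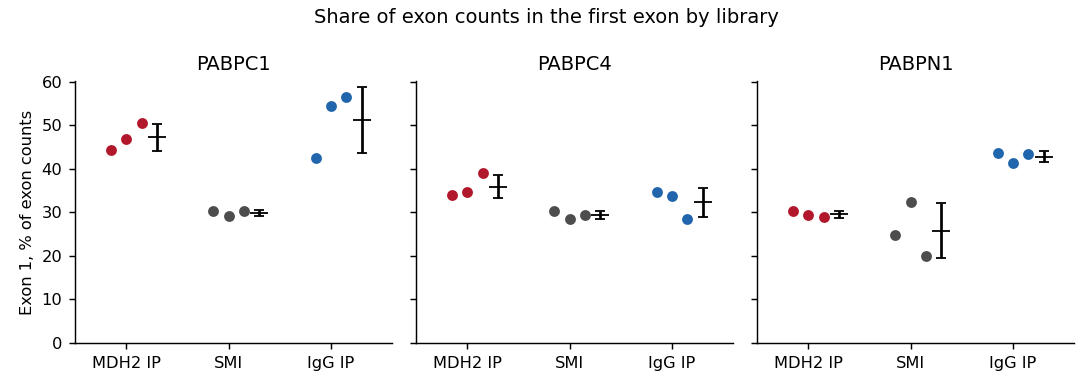
Share of a gene's exon counts that lay in exon 1 (y axis, percent, from 0) in the 9 libraries. Points are libraries and black marks the mean ± SD (n = 3). For PABPC1 both IPs (47.2% and 51.1% on average) are above SMI (29.9%), and for PABPN1 IgG IP (42.8%) is above both others.

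The intron share of PABPC1 was 14.4%, 9.36% and 11.7% in MDH2 IP, 22.0%, 14.6% and 21.5% in SMI, and 18.0%, 11.5% and 25.7% in IgG IP. For PABPC4 it was 19.4%, 16.8% and 16.4%, 27.8%, 26.0% and 29.0%, and 25.0%, 23.4% and 20.4%, in the same order. MDH2 IP was below every SMI library for both mRNAs (two-sided exact permutation p = 0.1 for each). For PABPC4 it was also below every IgG IP library, and IgG IP was below every SMI library (two-sided exact permutation p = 0.1 for each), while for PABPC1 IgG IP overlapped both. Such a lack of overlap was common: it held for 53.8% of all genes between MDH2 IP and SMI, 69.5% between MDH2 IP and IgG IP and 44.6% between IgG IP and SMI. PABPN1 had at most 3.18% of its counts in introns in any library.

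Within the first exon of PABPC1, the counts were highest at a site of the 5′ UTR. The 3 neighbouring windows with most MDH2 IP counts, 90 nt in all, held 40.4%, 39.2% and 45.6% of the exon's window counts in MDH2 IP, 21.9%, 29.5% and 26.3% in SMI, and 46.8%, 54.9% and 50.3% in IgG IP. The groups did not overlap, with IgG IP highest. The windows were chosen by their MDH2 IP counts, so these shares are a description with no test. The highest window had MDH2 IP counts of 355, 332 and 341, SMI counts of 69, 144 and 118 and IgG IP counts of 69, 75 and 31. Its level was 45.6 ± 10.3 CPM (SD, n = 3) in MDH2 IP, against 11.8 ± 3.56 for SMI and 30.9 ± 13.4 for IgG IP, so the IPs overlapped.

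A window was called enriched at a log2 fold change of at least 1 and an adjusted p of at most 0.05, from a one-sided edgeR test with p multiplied by the number of overlapping windows, and called lower by the same limits. Of all windows tested, 4.07% were enriched and 9.92% lower in MDH2 IP over SMI, 0.148% and 4.77% over IgG IP, and 6.17% and 6.34% in IgG IP over SMI. Of 122 tested windows of PABPC1, 8 were enriched in MDH2 IP over SMI, all of them among the 33 of exon 1, and 2 windows of exon 14 were lower. With the replicate number as a block, 13 were enriched and 9 lower. The 8 formed 2 runs of 4. The upstream run reached from 337 to 209 nt before the start codon, had log2 fold changes from 1.44 to 1.86 over SMI and included the window with most counts. The other run was placed around the start codon, from 97 nt upstream to 31 nt into the coding sequence, with values from 1.38 to 1.71. Its window with 1.71 had MDH2 IP counts of 40, 45 and 29 against 8, 13 and 10 in SMI. That window would not have passed the count filter without the MDH2 IP libraries. Positions hold to within 19 nt only if the listed exon 2 ends where that of the main transcript does. The edge of exon 1 was taken from that end and the numbering of windows. The listed exons are merged and of an older annotation release, so positions may be off by more. Whether the run near the start codon reaches the coding sequence is thus not settled. The scaling of windows moved these counts: with total counts as the library size, the median over all windows rose from 0.05 to 0.62, and 32 windows of PABPC1 were enriched. Without SMI replicate 1, 3 were enriched.

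The IgG IP had the same upstream run above SMI. Its 4 windows were enriched in IgG IP over SMI with log2 fold changes from 1.76 to 2.21, and of the run near the start codon 1 window was, at 2.20. Without SMI replicate 1, 2 or 3, the number enriched in IgG IP fell from 5 to 1, 3 and 3. Between MDH2 IP and IgG IP the direction depended on the scaling. The window fit, which scales libraries over windows, gave log2 fold changes from -0.24 to -0.08 in the upstream run and from -0.28 to 0.56 in the other. The CPM, scaled over genes, were higher in MDH2 IP in the upstream run, for example 20.7 against 14.2 in the window with the largest fold over SMI. Of 104 tested windows of PABPC1, 0 were enriched over IgG IP. By edgeR, 19 of them had a one-sided p under 0.05 without adjustment, as had 3115 of all 30424 windows tested over IgG IP. With total counts as the library size, the upstream run turned above 0, up to 0.15. A window that overlaps the 5′ end of that run had MDH2 IP counts of 15, 10 and 9, SMI counts of 20, 25 and 19 and 0 in each IgG IP library. It was at least 4.49-fold higher in SMI than in IgG IP, against 3 counts over the group, and was the window of PABPC1 called lower there. It passed the count filter only through the SMI libraries, and no window was called lower without IgG IP replicate 1 or any SMI library, while 3 were without IgG IP replicate 3.

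The 5′ UTR of the main PABPC1 transcript has 505 nt, with 20.6% A and 59.0% G or C. Its most A-rich 60 nt, with 66.7% A, lie from nt 73 to 132 of the transcript. By the placement above, the 3 windows with most MDH2 IP counts lie between nt 169 and 277, downstream of that stretch and without overlap. The window with most counts then has between 72% and 80% G or C. The next window upstream has between 52% and 78%, so a larger shift of position could change these values. The 2 windows of exon 14 lower in MDH2 IP are A-rich instead, with 70% and 54% A. Leaving out any library but MDH2 IP replicate 3 left 0 such windows, and without that one there were 5. They had 6, 1 and 6 and 6, 1 and 5 counts in MDH2 IP against 15, 11 and 13 and 15, 10 and 10 in SMI, with log2 fold changes of -1.73 and -1.70 (adjusted p = 0.029 and 0.0491, edgeR), and passed the count filter only through the SMI libraries.

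**Figure D4:**
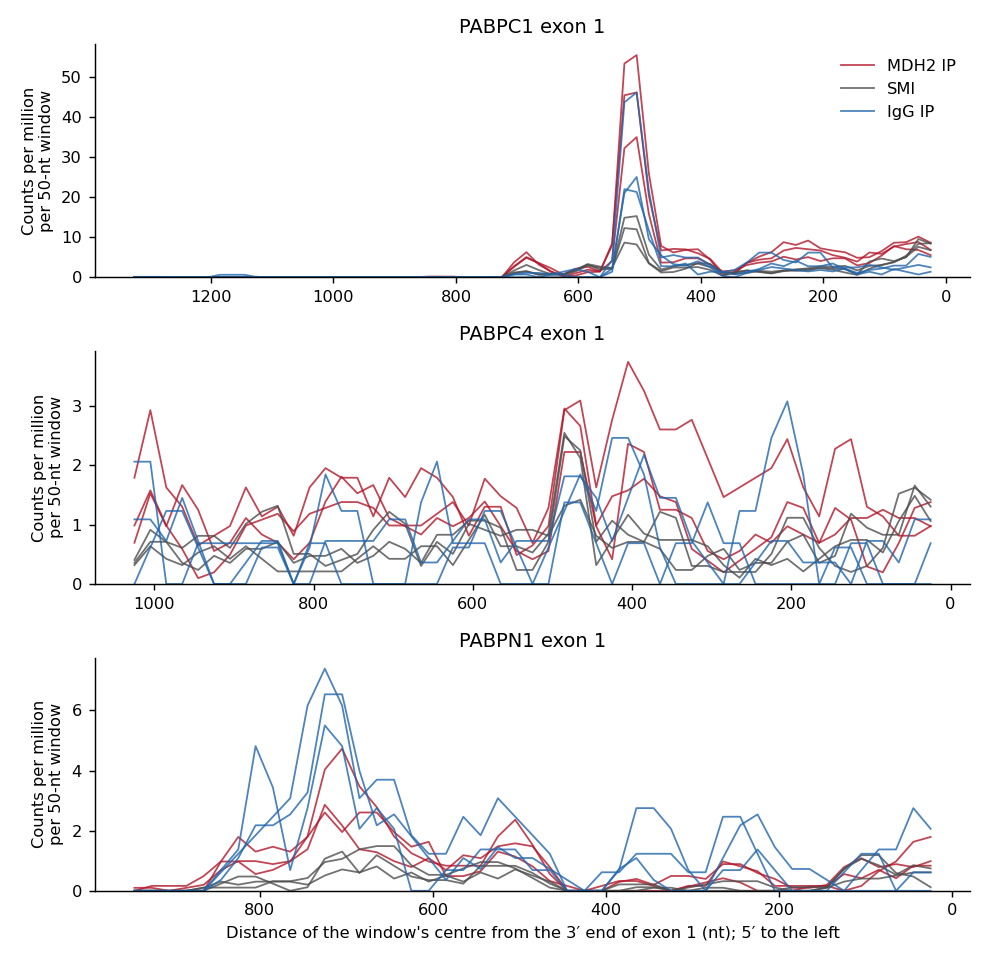
CPM in each 50-nt window (y axis, different range in each panel) along exon 1 of the 3 genes, by the distance of the window's centre from the 3′ end of the exon (x axis, nt, 5′ to the left). Each line is a library of MDH2 IP (red), SMI (grey) or IgG IP (blue). PABPC1 has its highest windows at the same place in all groups, with a lower rise at the 3′ end of the exon that in SMI comes closer to the height of the peak, PABPC4 has low counts along the whole exon, and PABPN1 has its tallest peak toward the 5′ side, with the IgG IP libraries highest there.

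PABPC4 had no enriched window among the 39 tested over SMI and none among 11 tested over IgG IP. Over SMI, 8 of the 39 had an unadjusted one-sided p under 0.05 in edgeR, a share like that of all windows (10428 of 51105). In its first exon, 15 of 18 tested windows were above 0 over SMI, with a median of 0.60 where that of all windows was 0.05. Neighbouring windows share sites, so the 18 are not separate observations. Some of them passed the count filter only through MDH2 IP, which favours values above 0, so this count is a description and no test. The windows with most MDH2 IP counts are in the 5′ UTR of exon 1. The higher of them had MDH2 IP counts of 30, 16 and 18, SMI counts of 21, 24 and 13 and IgG IP counts of 5, 2 and 2, and a log2 fold change of -0.05 over SMI in the window fit, where the CPM scaled over genes were 2.71 ± 0.416 against 2.12 ± 0.694 (SD, n = 3). The 30 nt that the 2 windows share, on GRCh38 chr1:39576219-39576248, minus strand, have 30.0% G or C and a run of T, shown in capitals. The peak of the PABPC1 first exon, as placed above, is richer in G and C.
PABPC4 exon 1: tactttgaTTTTTTgaaatttggagcttcg
The window with the largest log2 fold change over SMI, 1.76 (adjusted p = 0.0989, edgeR), lies from 617 to 568 nt before the start codon, has 86.0% G or C and had MDH2 IP counts of 13, 10 and 12 against 4, 2 and 3 in SMI, passing the count filter only through MDH2 IP.

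The largest change over SMI among the tested exons and introns of PABPC4 was in an intron that holds another RNA. Intron 8 was lower in MDH2 IP than in SMI, with 95, 57 and 81 counts against 183, 212 and 251 and a log2 fold change of -1.29 (SE 0.25, adjusted p = 0.00277, edgeR). It was also lower in IgG IP, with 26, 12 and 2 counts and -1.85 against SMI (SE 0.41, adjusted p = 0.00553, edgeR), and MDH2 IP over IgG IP had 0.74 (adjusted p = 0.331, edgeR). Inside this intron lies SNORA55, a box H/ACA small nucleolar RNA that is spliced out with the intron, at chr1:39567374-39567508 on the same strand. The 5 windows of PABPC4 called lower in MDH2 IP than in SMI all overlap SNORA55, with log2 fold changes from -2.78 to -2.16. They had at most 7 counts in any MDH2 IP library and at least 14 in each SMI library, and passed the count filter only through SMI, so that none can be tested once an SMI library is left out.

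Over all windows that overlap SNORA55 the summed MDH2 IP counts were 27, 20 and 20, those of SMI 113, 126 and 119 and those of IgG IP 10, 5 and 0. The rest of the intron had 68, 37 and 61, then 70, 86 and 132, and 16, 7 and 2 counts. The level on SNORA55 was 2.90 ± 0.314 CPM (SD, n = 3) for MDH2 IP, against 13.0 ± 0.758 for SMI and 2.24 ± 1.96 for IgG IP, and in the rest of the intron 7.26 ± 2.44, 10.3 ± 2.74 and 3.83 ± 2.26. On SNORA55 both IPs were below every SMI library, and in the rest of the intron IgG IP was, while MDH2 IP overlapped SMI. SNORA55 was singled out after its windows had been called, so these levels are a description. Counted under its own identifier, at the same place in the genome, SNORA55 was lower in MDH2 IP than in SMI, at -2.20 (SE 0.27, adjusted p = 0.00104, edgeR). It was also lower in IgG IP than in SMI, at -2.47 (SE 0.58, adjusted p = 0.0118, edgeR). Since these counts come from the place that had been singled out, they are a description too and no separate test. The 30 nt shared by a pair of these windows, chr1:39567459-39567488 of GRCh38, minus strand, have 70.0% G or C, and their G and C are in capitals.
SNORA55 in PABPC4 intron 8: CCttGCtGCCtCGtGCCGGtGtGGGGaCaG

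**Figure D5:**
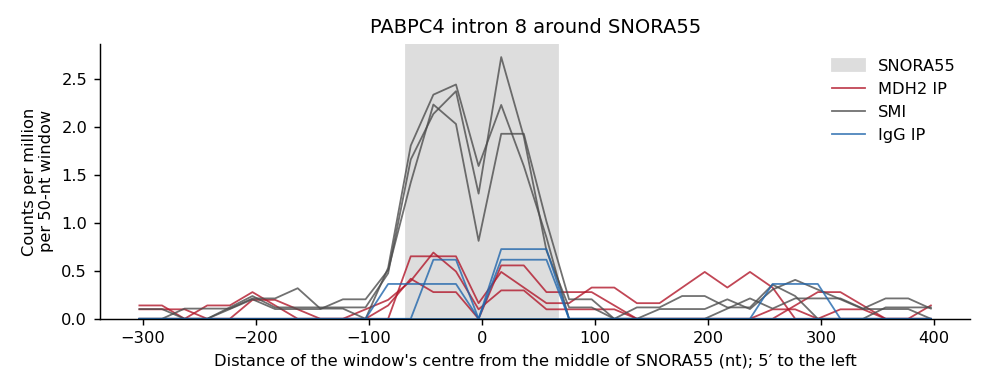
CPM in each 50-nt window of PABPC4 intron 8 (y axis) by the distance of the window's centre from the middle of SNORA55 (x axis, nt, 5′ to the left). The grey band is SNORA55 and each line is a library. The 3 SMI libraries rise over the band, while MDH2 IP and IgG IP stay low there.

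In PABPN1, 3 of 25 tested windows were enriched in MDH2 IP over SMI, and none of 19 over IgG IP (0 had an unadjusted one-sided p under 0.05 in edgeR). Among all windows tested over IgG IP, 3115 of 30424 had such a p. Of the 3 enriched windows, 2 lie in the coding part of exon 1, between 56 and 144 nt past the start codon. The first had MDH2 IP counts of 14, 13 and 11, SMI counts of 1, 4 and 2 and IgG IP counts of 9, 10 and 4. The second had MDH2 IP counts of 29, 29 and 16, SMI counts of 9, 9 and 5 and IgG IP counts of 18, 12 and 8. In both, every MDH2 IP library had more counts than any SMI library, with log2 fold changes of 2.23 and 1.49 (adjusted p = 0.0323 and 0.0416, edgeR). Both, and the next window, were lower in MDH2 IP than in IgG IP, from -1.88 to -1.63, and that next window was enriched in IgG IP over SMI by 2.97 (adjusted p = 2.64e-07, edgeR). With total counts as the library size, none of the 3 was called lower than IgG IP and 11 windows were enriched over SMI. All 3 enriched windows passed the count filter only through MDH2 IP, and leaving out a library left 0 windows enriched, except without SMI replicate 2, which left 1. Of the 3 lower than IgG IP, 0 were left without MDH2 IP replicate 1 or 3 or IgG IP replicate 2, and 1 without MDH2 IP replicate 2.

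The 30 nt shared by the second enriched window and the next one, on GRCh38 chr14:23321570-23321599, plus strand, have 90.0% G or C. Their position holds to within 19 nt if the listed exon 1 ends where exon 2 of the main transcript does. The remaining enriched window is in the 3′ UTR of exon 5, with MDH2 IP counts of 24, 13 and 26, SMI counts of 5, 7 and 7 and IgG IP counts of 9, 9 and 2 (1.56 over SMI, adjusted p = 0.0421, edgeR; -0.93 over IgG IP). The 30 nt it shares with the next window, at chr14:23325618-23325647, have 43.3% G or C. They are shown because both lie in windows higher than in SMI and differ in base content. Runs of G or C of 4 or more letters are in capitals in the first, and the run of T in the second.
PABPN1 exon 1: aGGCCGGGGaGGGGGCCCCGGGGGGCGCag
PABPN1 exon 5: gcgtgggtggtaggaggTTTTTTTTTTTac

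The 9 libraries gave a Pearson correlation of log2 CPM of 0.863 between PABPC1 and PABPC4, 0.0229 between PABPC1 and PABPN1 and -0.0441 between PABPC4 and PABPN1. All libraries of the 3 groups enter these correlations, which are descriptions. Of 17173 other genes, EIF2AK1 (0.98), ENOPH1 (0.971) and MED19 (0.959) were most like PABPC1, and C3orf62 (0.966), WDR3 (0.964) and ACAD8 (0.958) most like PABPC4. Most like PABPN1 were ENSG00000267740 (0.997), SPATA2L (0.995) and ENSG00000281016 (0.994).

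The mRNAs of proteins that work with poly(A)-binding proteins moved in both directions. Of 18 partners of cytoplasmic PABP, 2 were higher and 5 lower in MDH2 IP than in SMI (16.4% and 17.9% of all genes), with a median log2 fold change of -0.25 where the median of all genes was -0.01. EIF4G1, the scaffold of cap-dependent initiation that binds PABPC1, had 1.11 over SMI (adjusted p = 0.000812, edgeR) and 0.74 over IgG IP (adjusted p = 0.014, edgeR). TOB2, which recruits deadenylases, had 0.39 (adjusted p = 0.103, edgeR). At the other end, LARP4 had -1.42 and EIF4G3 -0.90 (adjusted p = 0.000757 and 0.00678, edgeR). Of 9 tested deadenylase genes of 10 listed, 2 were higher and 5 lower, with a median of -0.74. CNOT3 had 1.73 and PAN2 1.09, while CNOT6L had -1.03 and CNOT2 -0.96 (adjusted p from 0.00127 to 0.0273, edgeR). Of 17 genes of nuclear polyadenylation, 4 were higher and 5 lower, with a median of -0.18. CPSF1, a subunit that belongs to the cleavage and polyadenylation factor, had 1.07 and CPSF4 0.54, while PAPOLA, the canonical poly(A) polymerase, had -0.84 and NUDT21 -0.80 (adjusted p from 0.0006 to 0.0157, edgeR). In IgG IP over SMI these genes had the same direction, except CNOT3, which was not tested. There CPSF1 had 0.93, CPSF4 0.67, EIF4G1 0.46, TOB2 0.26 and PAN2 0.16. On the lower side, LARP4 had -1.19, PAPOLA -1.10, NUDT21 -0.91, CNOT6L -0.58, EIF4G3 -0.56 and CNOT2 -0.49.

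Over IgG IP, 6 of 44 tested genes of these 3 groups were higher (13.6%, against 4.64% of all genes) and 0 lower (7.77% of all genes), with a median of 0.33. In IgG IP over SMI, 4 of 43 were higher and 15 lower, which is 9.3% and 34.9% against 16.4% and 11.4% of all genes. Of the 7 paralogs, 3 had enough counts for a test over SMI and none was called. PABPC1L had MDH2 IP counts of 1593, 1894 and 439 and counts of 833, 1794 and 485 in SMI, a wide spread between replicates, with 0.53 (SE 0.53, adjusted p = 0.463, edgeR). PABPC3 had 11, 12 and 8 counts against 0, 5 and 11 in SMI, and 0 in each IgG IP library. PABPC4L had 13, 21 and 12 counts against 6, 5 and 14. BCL2L2-PABPN1 followed PABPN1, with which it shares exons, at 0.74 over SMI (adjusted p = 0.00376, edgeR), -0.41 over IgG IP (adjusted p = 0.126, edgeR) and 1.24 in IgG IP over SMI (adjusted p = 0.000464, edgeR).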

How the data were processed

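Per the labels and the methods, the authors trimmed reads with cutadapt, aligned them to hg38 with STAR, removed PCR duplicates by molecular identifiers and counted cross-link sites, at the nucleotide before the read start, with htseq-clip in windows of GENCODE v23 genes. They deposited raw counts per window and library, and 0 columns per sample were left unused. Gene names and positions came from GENCODE v44. Window numbers rise along the genome, which held for all 652 plus-strand and 658 minus-strand genes checked. Counts were summed over the windows of genes, exons and introns. A count of 10 or more was required in 3 or more of the 6 libraries of a comparison. The test was edgeR 4.0.16 (TMM, quasi-likelihood, Benjamini-Hochberg over the whole table, R 4.3.3), checked on simulated data. DESeq2 1.42.0 was an alternative. Shares and ratios were compared by exact permutation tests. Replicates of a group differed by more than counting noise (chi-square per degree of freedom over genes from 2.77 to 11.6). Same-numbered MDH2 IP and SMI libraries deviated together in replicates 2 and 3 (correlations of 0.482 and 0.503 over genes) and hardly in replicate 1 (0.13). MDH2 IP and SMI libraries of unlike number had correlations from -0.472 to 0.0482. A fit with the replicate number as a block is given where it changes a call. This pairing comes from the data, not the labels. The text names the 3 members, their tested exons and introns, windows with most counts, largest change or a call, the paralogs PABPC3, PABPC1L and PABPC4L, BCL2L2-PABPN1, the extremes of each gene group, and the 3 genes most like each member. SNORA55 and PABPC4-AS1 were added after their values were seen. The members and lists were chosen with earlier results of these data known.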

Additional observations from a re-analysis of the deposited data

How the results depend on the processing

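Depth was lowest in IgG IP, which limits both comparisons that use it, most of all for single windows. The log2 ratios to PABPN1 kept their direction under the alternatives run. The differences in the ratio of PABPC1 to PABPC4, whose groups overlap, changed sign with 1 library left out. Compared without pairing by replicate number, they ran from -0.09 to 0.24 over SMI and from -0.34 to 0.0081 in IgG IP over SMI. With total counts as library size, the share of higher genes among those called over IgG IP moved from 37.4% to 61.8%, and of enriched windows over SMI from 29.1% to 83.6%. With the replicate block, 4654 genes were higher and 5021 lower over SMI, against 2800 and 3061. The causes of the shifts below were not tested. For gene counts over SMI, PABPC1 had 0.51 with all 9 libraries in 1 fit and 0.27 with exon windows only, past the threshold in neither, and PABPC4 passed it with total counts (0.45) and with the replicate block (0.34). Over IgG IP, exon windows only gave 0.41 for PABPC1 and 0.23 for PABPC4, neither past it, and PABPN1 turned to 0.014 with total counts. In IgG IP over SMI, PABPC1 passed with the replicate block (-0.37) and with no filter (-0.53), PABPC4 turned to 0.00049 with exon windows only, exon 1 of PABPC1 turned to -0.045 with no filter and exon 1 of PABPC4 to 0.055 with at least 20 counts. The difference in the intron share of PABPN1 from IgG IP was -0.83 points over windows that do not overlap.

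Enriched windows over SMI numbered, for PABPC1, 32 with total counts, 15 with at least 20 counts and 13 with the replicate block. For PABPC4 there were 10 with total counts and 3 without multiplication by overlapping windows. For PABPN1 there were 0 with the DESeq2 Wald test or at least 20 counts, 11 with total counts and 5 without multiplication. Lower windows over SMI numbered, for PABPC1, 0 with the Wald test, total counts or at least 20 counts, 1 with all 9 libraries or a two-sided p, and 9 with the replicate block or without multiplication, and for PABPC4 1 with at least 20 counts. PABPN1 had 0 windows lower than IgG IP with total counts or at least 20 counts. In IgG IP over SMI, PABPC1 had 3 enriched with at least 20 counts, and 0 lower with the Wald test, 2 with DESeq2 size factors and 4 without multiplication, and PABPC4 had 1 lower without multiplication.

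With 1 library left out, log2 fold changes over SMI lay from 0.39 to 0.60 for the PABPC1 gene and from 0.55 to 0.94 for PABPC4 exon 1. Over IgG IP they lay from 0.76 to 1.10 for the PABPC1 gene, 0.60 to 0.85 for PABPC4, -0.24 to 0.026 for PABPN1 (0.026 without IgG IP replicate 2), 0.74 to 1.31 for PABPC1 exon 1 and 0.80 to 1.33 for PABPC4 exon 1. In IgG IP over SMI, PABPC4 exon 1 lay from -0.31 to 0.10 (0.10 without IgG IP replicate 3). Windows over SMI numbered 3 to 9 enriched and 0 to 5 lower for PABPC1, 0 to 5 lower for PABPC4 and 0 to 1 enriched for PABPN1. PABPN1 had 0 to 2 lower than IgG IP, and PABPC1 had 1 to 5 enriched and 0 to 3 lower in IgG IP over SMI.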
